A study of Mus musculus with 2 samples.

Results

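The surface markers examined here are 10 genes grouped as markers of satellite cells and of the myoblasts that grow from them. Satellite cells are the muscle stem cells that lie between the fiber membrane and the basal lamina. The 10 genes are Cd34, Cd24a, Sdc3, Sdc4, Cdh15, Vcam1, Met, Ncam1, Cav1 and Calcr. How well each of them marks these cells was not examined. Members were taken as the probe sets whose symbol in the annotation table of the array is exactly one of these names, and each gene had 1 such probe set, so the markers are 10 of the 21789 probe sets with 1 gene symbol and 10 of 19938 named genes.

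RNA came from 2 cultures of a single line of primary mouse myoblasts, labelled Control and MLL1 KO, and each was hybridised to 1 Affymetrix MoGene 1.0 ST array. Both cultures carried floxed Mll1 (Kmt2a) alleles and a tamoxifen-inducible Cre recombinase at the Rosa26 locus, which is active in all cell types, and both grew in Ham's F10 medium with 20% serum and 5 ng/ml FGF. The Mll1 cKO culture received 500 nM 4-hydroxytamoxifen in 0.01% ethanol for 7 days, and the control culture received 0.01% ethanol alone. Before RNA was taken, both were kept without these additions, for 3 days by the labels and for 2 days by the methods text. The methods describe such myoblasts as derived from hind limb muscle of mice aged 5 to 6 weeks, purified by removal of cells with CD11b, SCA1, CD45 or CD31 and then by binding to an antibody against α7-integrin. None of the 10 markers was used in that purification. Because only the Mll1 cKO culture received the drug and the active recombinase, loss of MLL1, Cre activity and the drug cannot be told apart, and in RNA of a whole culture a changed number of expressing cells cannot be told apart from a changed amount of RNA per cell.

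The values are the authors' log2 signals after robust multi-array averaging (RMA), and each log2 difference is Mll1 cKO minus control. With 1 array per condition there is no spread between cultures, no error and no test, and every difference below compares these 2 arrays. Values are as deposited unless one of 3 other scalings is named, which centred the differences on their median, removed their trend on mean signal, or quantile normalized both arrays once more over the probe sets that are not controls. Signals of different probe sets depend on their probes, so the amounts of different genes were not compared. Summed signals and distances between pairs of signals, given below, describe the arrays and not such amounts. Of the 19938 genes, 8298 were higher, 11091 were lower and 549 had the same signal in both arrays, and the median over all of them was -0.05. Genes with a mean signal under 6 had a median of -0.15, and those with a mean signal over 6 had a median of 0.06. Kmt2a itself had signals of 9.44 and 9.66, and since its 1 probe set is not limited to the excised part of the gene, these values check nothing about the deletion.

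The markers differ in build and in role. CD34 is a sialomucin, a heavily glycosylated membrane protein of quiescent satellite cells that is also found on endothelial cells, on fibro-adipogenic progenitors and on blood stem cells. CD24 is a short, glycosylated protein held in the membrane by a lipid anchor. Syndecan-3 and syndecan-4 carry heparan sulphate chains that bind growth factors. M-cadherin, VCAM-1 and NCAM hold cells to each other, MET is the receptor of hepatocyte growth factor, which activates satellite cells, and the calcitonin receptor is a marker of their quiescence that is lost on activation. Caveolin-1 coats the membrane pits called caveolae.

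Most of the surface markers had nearly the same signal in both arrays, whereas 2 of them were clearly higher in the Mll1 cKO array. Of the 10 markers, 6 were higher and 4 lower, or 7 and 3 under the other scalings, where Calcr changed sign, and the median difference of the markers was 0.06 on the log2 scale. Cd24a and Cd34 were over 2-fold higher, the cut-off of the study's methods, and no marker was over 2-fold lower. Among all probe sets with 1 symbol, 1.18% passed 2-fold upward and 0.101% downward. The markers were chosen with earlier results of these data known, so the counts beside these shares are a description and not a test. At a 1.5-fold cut-off the markers gave the same counts, 2 higher and 0 lower, where 4.85% of probe sets were higher and 2.03% lower. At 3-fold only Cd24a passed, where 0.207% of probe sets were higher and 0.0229% lower. For 7 of the other 8 markers the signals lay within 1.2-fold of each other, as did those of 61.6% of all probe sets with 1 symbol. The exception was Vcam1, and the 7 include Calcr, which was dim in both arrays.

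**Figure D1:**
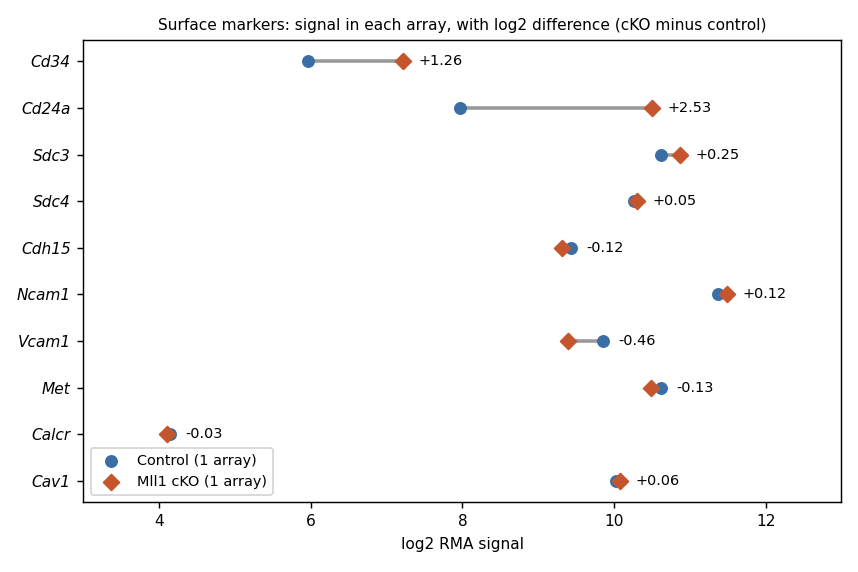
Log2 RMA signal (horizontal axis) of the 10 surface markers in the control array (circles) and the Mll1 cKO array (diamonds), with the log2 difference printed beside each pair. Each point is 1 array, so there are no error bars. Cd24a and Cd34 are set apart, with differences of 2.53 and 1.26, and Vcam1 has the most negative difference, at -0.46.

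The log2 signal of Cd24a was 7.97 in control and 10.50 in Mll1 cKO myoblasts, a 5.76-fold higher level. The paper also measured Cd24a by RT-qPCR and found it higher in Mll1 cKO myoblasts. Only 5 of the 21789 probe sets with 1 symbol had a larger log2 difference than the 2.53 of Cd24a. Of the 2393 other probe sets whose mean signal lay within 0.5 of that of Cd24a, 0 had a difference as large. The receptors that bind CD24 on other cells include selectins and sialic acid-binding lectins of leukocytes. Of 4 such receptor genes 3 could be named, and all 3 were lower by less than 2-fold, with Siglece, which encodes a lectin of neutrophils and macrophages, at signals of 4.36 and 4.00. Siglecg had signals of 5.98 and 5.87, and Siglec1 of 5.04 and 4.74. All 3 were dim, with mean signals under 6, where 70.8% of all genes were lower. Their median difference of -0.3 became -0.09 with the trend on signal removed, so these values give no direction for the receptors. The genes whose pair of signals lay nearest to that of Cd24a were Nptx1, Tgfb1 and Car3. Their signals were 8.68 and 10.75 for Nptx1, 8.33 and 9.77 for Tgfb1, and 8.77 and 10.71 for Car3. Their distances from Cd24a over the 2 arrays were 0.75, 0.82 and 0.83 log2 units. Since signals depend on the probes, such distances describe the arrays and do not compare amounts of RNA.

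For Cd34 the log2 signals were 5.96 in control and 7.22 in Mll1 cKO myoblasts, a 2.40-fold higher level. Larger log2 differences were found in 114 of the 21789 probe sets. Among the 2122 probe sets with a mean signal within 0.5 of its own, 26 differed as far or farther in the same direction, which is 1.23%. Podxl, which encodes podocalyxin, a sialomucin of the same family, had signals of 7.45 and 8.34 and was 1.86-fold higher, below the cut-off. Podxl2, which encodes endoglycan, the remaining sialomucin of the family, had signals of 5.02 and 5.21. All 3 sialomucin genes were thus higher in the Mll1 cKO array, and only Cd34 by more than 2-fold. Dclk1, Lncpint and Fos had the pairs of signals nearest to Cd34, at distances of 0.05, 0.05 and 0.09 log2 units. Fos, which encodes an immediate early transcription factor, had signals of 6.02 and 7.29, a 2.40-fold difference like that of Cd34.

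**Figure D2:**
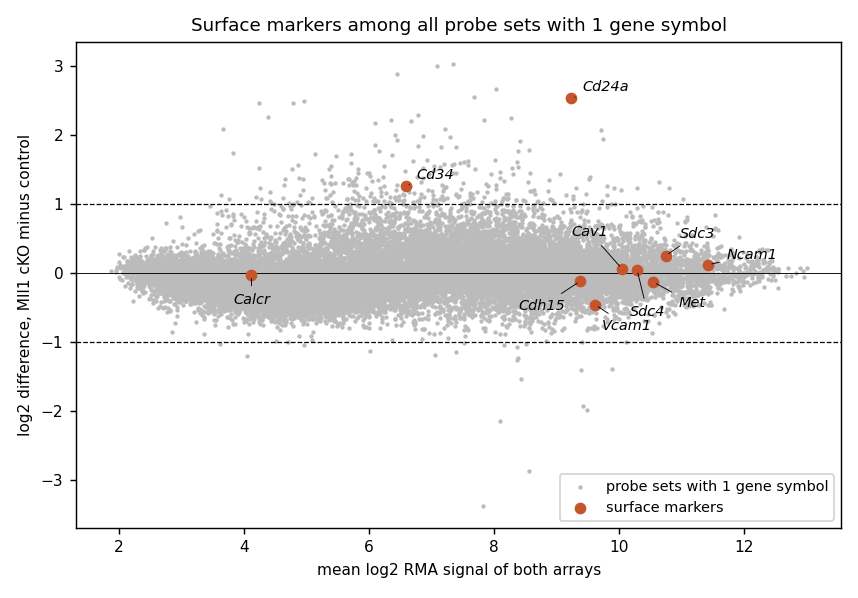
Log2 difference, Mll1 cKO minus control (vertical axis), against the mean log2 RMA signal of both arrays (horizontal axis), for the 21789 probe sets with 1 gene symbol (grey) and the 10 surface markers (red). Dashed lines mark 2-fold. Cd24a and Cd34 lie above the upper line, and the other 8 markers lie inside the band of the grey points.

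MLL1 methylates histone H3 at promoters and binds unmethylated CpG dinucleotides through its CXXC domain, so the promoters of the markers were set beside their signals. RefSeq promoter windows of build GRCm38.p6 were given for 7 of the 10 genes, in 9 windows, and the 250 bases before each start were read. Cd24a, Vcam1 and Ncam1 had no entry. The promoter of Cd34 is shown as that of a gene that was over 2-fold higher, beside that of Sdc4, whose signals nearly coincided. The sequences run from 5′ to 3′ on the strand of the gene, and capitals mark CpG dinucleotides.
Cd34, chr1:194938571-194938820, plus strand: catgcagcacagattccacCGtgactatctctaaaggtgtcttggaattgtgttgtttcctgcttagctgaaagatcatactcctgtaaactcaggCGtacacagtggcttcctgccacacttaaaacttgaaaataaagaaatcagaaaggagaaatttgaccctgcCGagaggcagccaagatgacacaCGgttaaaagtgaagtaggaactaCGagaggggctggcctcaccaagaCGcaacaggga
Sdc4, chr2:164443189-164443438, minus strand: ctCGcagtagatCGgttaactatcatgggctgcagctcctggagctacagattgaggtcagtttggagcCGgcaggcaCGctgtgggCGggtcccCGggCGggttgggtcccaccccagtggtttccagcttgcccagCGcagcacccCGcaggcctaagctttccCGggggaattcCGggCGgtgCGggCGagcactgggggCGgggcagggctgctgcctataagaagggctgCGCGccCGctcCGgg

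The window of Cd34 held 6 CpG dinucleotides and had a G and C content of 46.4%, whereas that of Sdc4 held 19 and had 68.0%. Over all 32851 promoter windows of this length the median was 6 CpG dinucleotides and 52.4% G and C. Sdc3 had 32 CpG dinucleotides, more than 95.4% of all windows, and Met had 24. The 2 windows of Calcr held 24 and 2, and the 2 of Cav1 held 10 and 12. Cdh15 had 5. The markers with near-equal signals in both arrays therefore span CpG-poor and CpG-rich promoters, and the Cd34 window lies at the median of all windows. The GC box GGGCGG, searched on both strands and itself holding a CpG, was found in 6 of the 9 windows and in 32.7% of all windows. The letters TATAAA and CCAAT were searched on both strands as well. TATAAA occurred in 1 of the 9, a window of Cav1 that held it on the strand opposite to the gene, and in 12.4% of all windows. CCAAT occurred in 0 of the 9 and in 33.8% of all windows.

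The E-box, written CANNTG and the same on both strands, is the short motif bound by MYOD1 and the other myogenic regulatory factors. It was found in 5 of the 9 windows and in 66.2% of all windows. The Cd34, Sdc3 and Sdc4 windows held none. Cdh15, a cadherin gene of the muscle lineage, held 3, the highest number among the markers, and its window is shown with the E-boxes in capitals. A match of these letters is a description of the sequence and not evidence of binding.
Cdh15, chr8:122848124-122848373, plus strand: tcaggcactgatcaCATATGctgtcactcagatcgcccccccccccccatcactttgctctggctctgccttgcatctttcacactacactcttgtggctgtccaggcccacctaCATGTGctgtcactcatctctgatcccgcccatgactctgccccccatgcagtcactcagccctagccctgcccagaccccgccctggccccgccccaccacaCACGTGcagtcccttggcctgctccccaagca

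Both syndecan markers were slightly higher in the Mll1 cKO array. Sdc3 had log2 signals of 10.62 and 10.87 and was 1.19-fold higher, and Sdc4 had signals of 10.26 and 10.31. Larger differences than that of Sdc3 were found in 3781 of the 21789 probe sets, and larger ones than that of Sdc4 in 7864. The remaining syndecans were close as well, with Sdc1 at 9.12 and 9.20 and Sdc2 at 9.98 and 10.24, so that all 4 syndecan genes were higher and none by more than 1.19-fold. Of the 8 further surface heparan sulphate proteoglycans (Sdc1, Sdc2 and 6 glypicans), 2 were higher, 6 were lower and none passed 2-fold, and with centred differences 4 were higher and 4 lower. Across all genes 1.16% passed 2-fold upward and 0.11% downward. The lowest difference in that list was that of Gpc5, which encodes glypican-5, with the dim signals of 4.20 and 3.70. The enzymes that build, sulphate or trim the heparan sulphate chains were also near-equal. Of the 20 that were measured, 13 were higher, 6 were lower and none passed 2-fold, and the median over them was 0.04. Ext1, a polymerase of the chain, had signals of 9.80 and 10.06, and Sulf2, which removes sulphate groups from finished chains, had signals of 10.65 and 10.87. The largest difference was that of Hs3st3b1, a sulphotransferase, with signals of 6.84 and 6.18, which was 1.58-fold lower.

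Among the adhesion markers, Cdh15, Ncam1 and Vcam1 did not run the same way. Cdh15, which encodes M-cadherin of the satellite cell and myoblast membrane, had log2 signals of 9.43 and 9.32 and was 1.08-fold lower. Ncam1 had signals of 11.37 and 11.49 and was 1.09-fold higher. Vcam1, a cell adhesion molecule of the immunoglobulin family, had signals of 9.85 and 9.39 and was 1.37-fold lower. Of the 1994 probe sets with a mean signal within 0.5 of that of Vcam1, 79 were as low or lower, which is 3.96%. Under the 3 other scalings the log2 difference of Vcam1 lay between -0.48 and -0.40.

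The proteins that M-cadherin works beside include N-cadherin and the catenins, which link cadherins to actin. Cdh2, which encodes N-cadherin, had log2 signals of 11.49 and 11.45, and Ctnnb1, which encodes β-catenin, had 11.64 and 11.58. Of 11 cadherin and catenin genes, 3 were higher and 8 were lower, or 5 and 6 with centred differences. Over 2-fold, 1 was higher and none lower, beside 1.16% and 0.11% of all genes. The gene that passed was Jup, with signals of 8.21 and 9.56, a 2.55-fold higher level. It encodes plakoglobin, a relative of β-catenin in desmosomes and adherens junctions. Cdh11, a mesenchymal cadherin, had signals of 10.07 and 9.67.

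VCAM-1 binds integrins of the α4 and α9 subunits. Itga4, which encodes integrin α4, had log2 signals of 6.19 and 7.22 and was 2.04-fold higher, in the opposite direction to Vcam1, but at 1.95-fold it no longer passed after quantile normalization. Its partner subunit gene Itgb1 had signals of 10.64 and 10.52, and Itga9 had the dim signals of 5.30 and 4.98. Of the 4 integrin genes in the list, 1 was higher and 3 were lower, or 2 and 2 after quantile normalization or removal of the trend.

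The activity of NCAM is tuned by polysialic acid, a long sugar chain added by a pair of sialyltransferases. Both of these genes were lower, with log2 signals of 9.73 and 9.39 for St8sia2 and of 6.07 and 5.60 for St8sia4, or 1.26-fold and 1.39-fold. Ncam2, the paralogue, was at 3.23 in both arrays. Among 10 genes of related adhesion molecules, polysialylation and GDNF signalling, in which NCAM takes part, 3 were higher and 6 were lower, or 5 and 5 under each other scaling. Nrcam, which encodes an adhesion molecule of neurons and their myelinating cells, had signals of 6.37 and 7.90 and was 2.88-fold higher. The receptor genes Ret and Gfra1 were 1.57-fold and 1.49-fold higher, with signals of 5.41 and 6.06 for Ret and of 8.03 and 8.61 for Gfra1, whereas the ligand gene Gdnf had signals of 5.05 and 4.72.

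Met and Calcr, the receptor markers, had near-equal values, but those of Calcr were dim and whether it was detected is not known. Met had log2 signals of 10.62 and 10.49 and was 1.09-fold lower. Hgf, the gene of its ligand, had the dim signals of 4.03 and 4.92, and whether it was detected is not known either. It was 1.86-fold higher, which became 2.13-fold with the trend on signal removed and 2.06-fold after quantile normalization. Of 18 genes of the HGF and MET pathway, 12 were higher and 6 lower, or 10 and 8 after quantile normalization. The log2 differences had a median of 0.06, and 1 gene was over 2-fold higher, beside 1.16% of all genes. The one that passed was Plat, which encodes tissue plasminogen activator, a protease, with signals of 6.66 and 7.73. It was 2.10-fold higher and was at 1.98-fold after quantile normalization. St14, which encodes matriptase, a membrane protease that can activate HGF, was 1.81-fold higher with signals of 5.42 and 6.28. The activator genes Hgfac and Hpn were near-equal, with signals of 5.20 and 5.22 and of 5.50 and 5.57. The protease inhibitor genes Spint1 and Spint2 had signals of 5.90 and 5.80 and of 5.14 and 4.96. The adaptor genes Gab1 and Grb2, which act inside the cell after MET is engaged, had signals of 7.57 and 7.93 and of 7.70 and 7.75.

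Calcr was dim in both, at log2 signals of 4.14 in control and 4.10 in Mll1 cKO myoblasts. Only 20.2% of the probe sets with 1 symbol were dimmer in control myoblasts and 22.1% in Mll1 cKO myoblasts, and the deposited table gives no detection call, so whether Calcr was detected is not known. Its difference of -0.03 turned positive under each of the other scalings, at 0.03 with differences centred on their median, 0.14 with the trend on signal removed and 0.11 after quantile normalization. Calcrl, which encodes the related receptor of adrenomedullin and of calcitonin gene-related peptide, had signals of 7.69 and 8.77 and was 2.12-fold higher under the deposited scaling. Calcrl needs a RAMP protein to reach the surface, and Ramp1, Ramp2 and Ramp3 had dim signals of 5.36 and 5.28, 4.59 and 4.15, and 5.78 and 5.78. Collagen V is a ligand by which satellite cells engage the calcitonin receptor. Its chain genes Col5a1, Col5a2 and Col5a3 were lower by 1.28-fold, 1.22-fold and 1.25-fold, with signals of 7.21 and 6.85, 8.01 and 7.72, and 6.06 and 5.73. Of the 12 genes of this pathway that were measured, 4 were higher and 6 were lower, or 7 and 5 with the trend on signal removed. Calcrl alone was over 2-fold higher, beside 1.16% of all genes. The median of this list, at -0.04, turned positive under each other scaling.

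Cav1 had log2 signals of 10.02 and 10.08 and was 1.04-fold higher, and Cav2, whose protein forms complexes with caveolin-1, had 7.92 and 7.89. Cav3, the caveolin of mature muscle fibers, had signals of 5.64 and 5.94. Of 9 other genes of the caveolar coat, 5 were higher and 4 were lower. Cavin4, the cavin of muscle cells, was 2.07-fold higher, with signals of 7.94 and 8.99, and was at 1.98-fold after quantile normalization. Cavin3 was 1.54-fold higher, from 9.07 to 9.70, whereas Cavin1, the general coat protein of caveolae, had signals of 10.13 and 9.97. The muscle form of the cavins thus stood apart from Cav1 and Cavin1, which differed little.

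**Figure D3:**
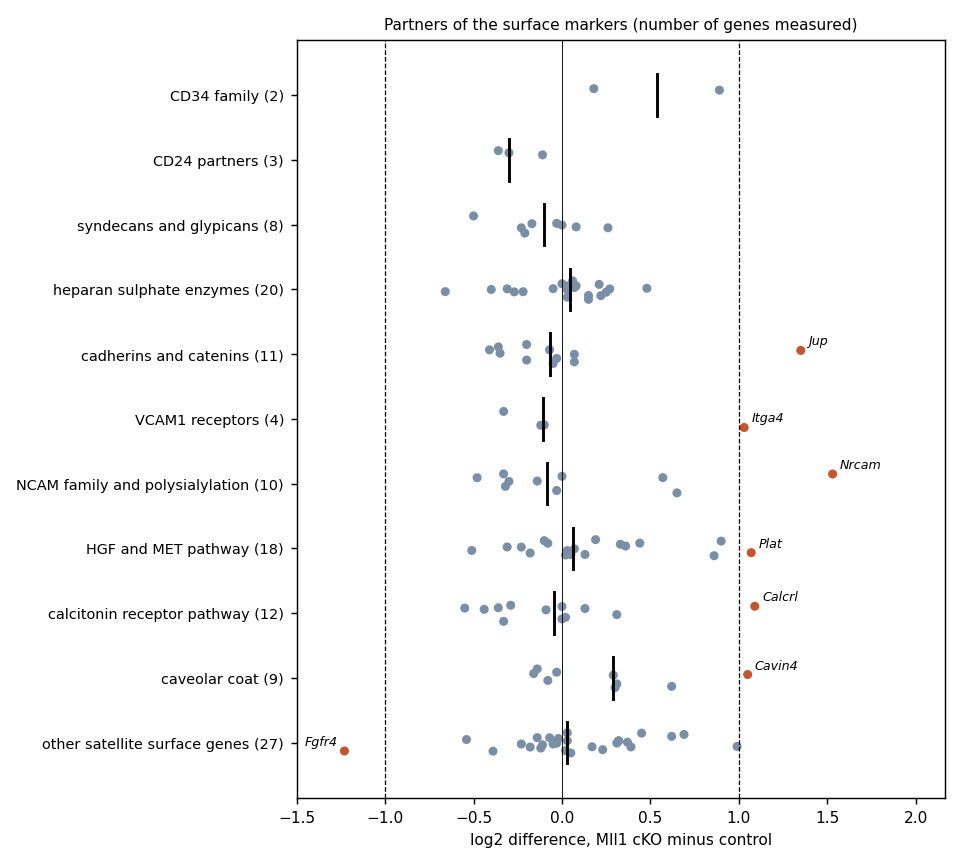
Log2 difference, Mll1 cKO minus control (horizontal axis), of the genes that work with the surface markers, grouped by list with the number measured in brackets. Each point is 1 gene, short black bars are list medians, dashed lines mark 2-fold, and genes beyond them are named. In 6 lists a single gene lies beyond the upper line, and Fgfr4 is the only one beyond the lower line. Of all named genes, 1.16% lie beyond the upper line and 0.11% beyond the lower line.

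The other surface genes used for satellite cells and myoblasts were similarly mixed. Of 27 genes, 15 were higher and 12 lower, with the median at 0.03, and after quantile normalization 13 were higher and 14 lower, with the median at -0.01. The 1 gene over 2-fold lower, beside 0.11% of all genes, was Fgfr4, a fibroblast growth factor receptor, with log2 signals of 9.00 and 7.77. The paper found Fgfr4 lower by RT-qPCR as well. Tshr, which encodes the thyrotropin receptor, had the dim signals of 4.29 and 5.28 and was 1.98-fold higher, and it passed 2-fold under each other scaling, at 2.06-fold to 2.28-fold. Cxcr4, a chemokine receptor of satellite cells, was 1.54-fold higher with signals of 8.54 and 9.16. Cd82 and Megf10, which mark human and mouse satellite cells respectively, had signals of 10.98 and 10.93 and of 11.06 and 10.99.

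CD34 and the calcitonin receptor are both known from quiescent cells. Cd34 was higher, and for Calcr, not known to be detected, no statement can be made. Of 18 other genes known from quiescent satellite cells, 7 were higher and 11 were lower. Over 2-fold, 1 was higher and 1 was lower, beside 1.16% and 0.11% of all genes. The median of the 18 was -0.09, or 0.10 among those with a mean signal over 6. The gene over 2-fold higher was Fos, and the gene over 2-fold lower was Myf5, whose signals were 9.51 and 6.14. Neither is particular to quiescence, since Fos encodes an immediate early factor and the paper reports Myf5 expression in primary myoblasts. Spry1, an inhibitor of growth factor signalling in quiescent cells, had signals of 7.06 and 7.59, and Cdkn1b, a cell cycle inhibitor, had 7.22 and 6.73. Of 13 genes of differentiating myocytes, 10 were higher and 3 lower, with a median of 0.57, where 41.6% of all genes were higher. Mymk and Mef2c were over 2-fold higher, beside 1.16% of all genes. Myog, whose mRNA the paper calls unchanged, was 1.56-fold higher, with signals of 7.30 and 7.94. The dim Mymx and Ckm had signals of 5.85 and 5.73 and of 5.87 and 5.76. Mymk, the gene of the fusion protein myomaker, had signals of 8.91 and 10.05.

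Several of the markers are also made by cells other than myoblasts, so markers of those cells were read from the same arrays. Of the defining myoblast genes, Myod1 had log2 signals of 12.15 and 12.27, Des of 11.58 and 11.49 and Pax7 of 10.29 and 10.02, and levels on such arrays cannot by themselves settle the identity of the cells. Among 6 myoblast markers, which include Cdh15, 1 was higher, 5 were lower and none passed 2-fold. Myf5, which myoblasts also express, was placed in the list of quiescent cells and not in this one. It was 10.3-fold lower, with signals of 9.51 and 6.14, so the count of 6 does not cover all myoblast genes. RMA gives no value of 0, so no marker could be called absent.

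Endothelial cells carry CD34, VCAM-1 and caveolin-1, and 0 of 10 endothelial markers were higher and 9 were lower, or 2 and 8 under each other scaling. Their linear signals summed to 347 in control and to 291 in Mll1 cKO myoblasts. Pecam1, which encodes CD31, had log2 signals of 5.08 and 5.03, and Cdh5 had 4.30 and 4.10. Fibro-adipogenic progenitors carry CD34, and of the 10 of 11 markers of fibroblasts and these progenitors that could be named, 1 was higher and 9 were lower, or 2 and 8 after quantile normalization or removal of the trend, with summed signals of 646 and 517. The marker left out is Ly6a, which encodes SCA1, a main surface marker of these progenitors. It was not analysed here because the annotation table names no probe set for it. The paper lists Ly6a among the genes upregulated in Mll1 cKO myoblasts, the opposite direction to most of the others. The count and the sum therefore give no direction for this cell type as a whole, and its part in the Cd34 difference was not tested. Pdgfra, a receptor of these progenitors, had log2 signals of 5.15 and 5.09, and the largest difference among the 10, at -0.66, was that of Pi16. All 9 immune markers that could be named, of 10 listed, were lower as deposited, 6 with the trend on signal removed and 7 after quantile normalization, and their summed signals were 184 and 155. Ptprc, which encodes CD45, had log2 signals of 3.83 and 3.69. Most of these endothelial, fibroblast and immune markers are dim, and 70.8% of all genes with a mean signal under 6 were lower in the Mll1 cKO array.

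Smooth muscle and pericyte markers were split, with 4 of 9 higher and 5 lower, or 5 and 4 after quantile normalization, and summed signals of 2816 and 2933. Most of that sum is Acta2, smooth muscle actin, which had log2 signals of 11.22 and 11.23, and without it the other 8 genes summed to 438 and 528. Rgs5 had the largest difference of these, with log2 signals of 6.95 and 7.74. Of 5 Schwann cell markers, from 7 listed, 2 were higher and 2 were lower, with summed signals of 331 and 335, and Sox10, the transcription factor of that lineage, had signals of 5.53 and 5.23. Epithelial cells carry CD24, and of 8 epithelial markers 4 were higher and 4 were lower, with summed signals of 369 and 589. That sum is carried by Krt18, a keratin, which had log2 signals of 6.19 and 8.26 and was 4.22-fold higher, and without it the other 7 genes summed to 296 and 282. Epcam, a defining surface protein of epithelia, had signals of 4.22 and 3.88, and Cdh1, which encodes E-cadherin, had 4.47 and 4.54. The part of Krt18-expressing cells in the Cd24a difference was not tested.

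**Figure D4:**
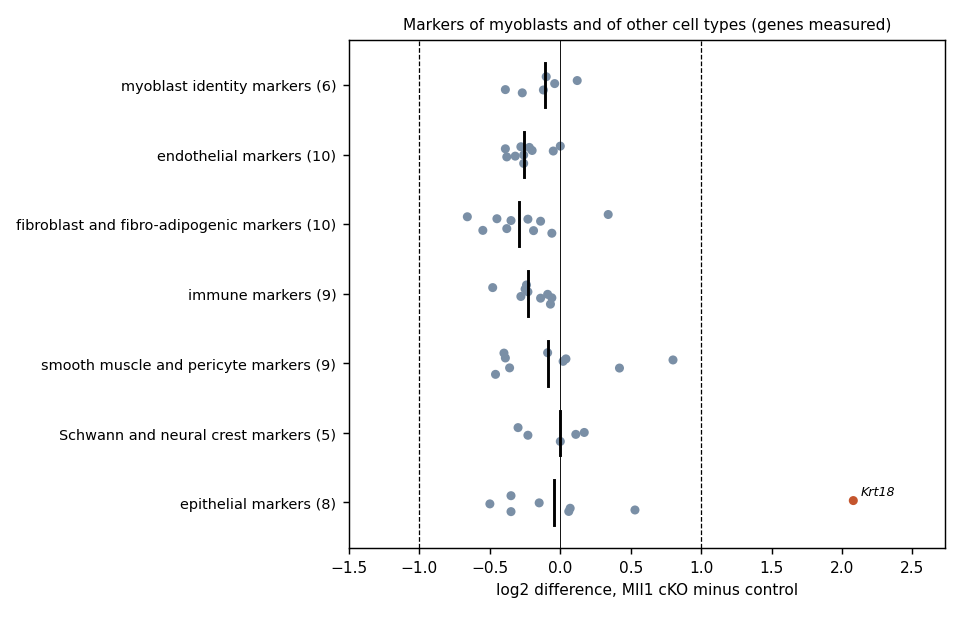
Log2 difference, Mll1 cKO minus control (horizontal axis), of markers of myoblasts and of 6 other cell types, with the number of genes measured in brackets. Points are genes, short black bars are list medians and dashed lines mark 2-fold. Krt18, among the epithelial markers, is the only gene drawn beyond a dashed line, and listed genes that were not analysed here, Ly6a among them, are not drawn.

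Genes next to the markers on the chromosome were read in the gene order of GRCm38.p6, as the 3 nearest named genes on each side by start position. A gene that lies inside another one therefore counts as its neighbour. Cav1 and Met are direct neighbours on chromosome 6, with Cav2 on the other side of Cav1 and Capza2 beyond Met, and log2 differences of these 4 genes lay between -0.13 and 0.06. Calcr lies on the same chromosome. By start position it comes between Vps50, with signals of 8.11 and 8.21, and a pair of microRNA genes with dim signals. Whether these microRNA genes lie inside Calcr or beyond it was not read. The neighbours of Cd24a did not share its difference. Mtres1, on one side, had signals of 8.69 and 8.90, and F930017D23Rik, on the other, had 7.06 and 6.38. Beside Cd34, Plxna2, a semaphorin receptor gene, had signals of 8.64 and 8.32 and A330023F24Rik had 4.99 and 5.08. Further along, Cd46 and Cr1l, both of which encode complement regulators, were 1.61-fold and 1.34-fold higher, with signals of 4.38 and 5.06 and of 6.51 and 6.93. None of the 54 neighbours that are not markers themselves passed 2-fold in either direction, and their median log2 difference was -0.02.

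**Figure D5:**
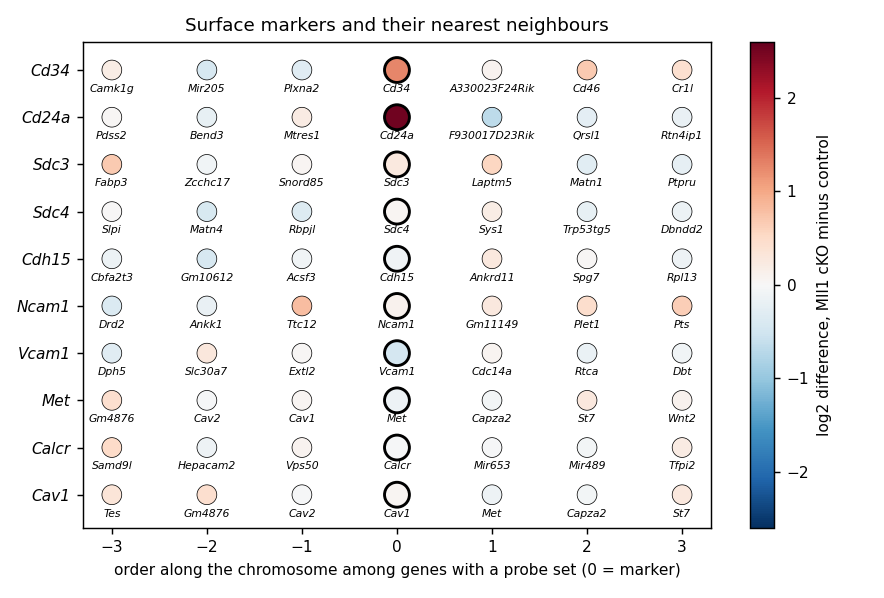
Log2 difference, Mll1 cKO minus control (color), of each surface marker (center, thick outline) and its 3 nearest named genes on each side. Genes are in order of start position along the chromosome, with distances not to scale. Dark red marks Cd24a and lighter red marks Cd34, and no neighbour is beyond 2-fold.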

How the data were processed

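RNA of 1 control and 1 Mll1 cKO myoblast culture was hybridised to Affymetrix MoGene 1.0 ST arrays. Per the methods, the authors used RMA (background correction, quantile normalization and summary of probes), and they deposited log2 signals of 35557 probe sets. The software version and annotation behind them are not given in the sources used here. Quantile normalization sets both arrays to one distribution, so a shift shared by all genes could not be seen. Log2 differences (Mll1 cKO minus control) were computed from the deposited values, a fold is 2 to the power of their size, and the mean of its probe sets stands for a gene in lists.

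The 6618 probe sets numbered below the first one with a gene were taken as controls. The other 28939 comprise 21789 with 1 symbol, which were named, 1621 with several and 5529 without any. Markers and lists were chosen with earlier results of these data known. Text names all markers and, from each list, genes over 2-fold or else the largest difference, direct partners of a marker, nearest neighbours, and the 3 genes with the nearest pair of signals. Some further list members were named after their values were seen. Lists covered the partners, other satellite cell surface genes, quiescence, differentiation, and markers of myoblasts and of endothelial, fibroblast, immune, smooth muscle, Schwann and epithelial cells. Counting was tested on simulated differences. Promoters are RefSeq windows, whose strand was checked on 1677 overlapping opposite windows.

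Alternatives were centring, removal of a lowess trend (span 0.3), renewed quantile normalization, 1.5-fold or 3-fold in place of 2-fold, a minimum of 7 for the brighter array, a mean signal over 6, the brightest probe set, and inclusion of control probe sets in the background. Python 3.11.15, numpy 2.4.6, pandas 2.3.3, statsmodels 0.14.6 and matplotlib 3.10.9 were used.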

Additional observations from a re-analysis of the deposited data

How the results depend on the processing

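No paired analysis was possible because each condition has 1 array, and for the same reason no replicate could be left out. Cd24a and Cd34, and no other marker, passed the cut-off with differences centred on their median, with the trend on signal removed, after renewed quantile normalization, at a 1.5-fold cut-off, and with a minimum of 7 for the brighter array. At a 3-fold cut-off 1 marker, Cd24a, remained. Across the scalings Cd24a was 5.55-fold to 6-fold and Cd34 2.3-fold to 2.5-fold higher, and among the markers only Calcr changed sign. The median difference of the markers lay between 0.06 and 0.11. With control probe sets counted in the background, 3.01% of probe sets passed upward and 0.25% downward.

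Medians of several lists moved by 0.1 or more, and the cause was not tested. With the trend on signal removed they were -0.09 for CD24 receptors, 0.02 for the NCAM list, 0.09 for the calcitonin receptor pathway, -0.09 for endothelial, -0.04 for immune, 0.02 for smooth muscle, 0.10 for Schwann cell and 0.10 for epithelial markers. After quantile normalization they were -0.14 for CD24 receptors, 0.02 for the NCAM list, -0.13 for endothelial, -0.08 for immune and 0.02 for smooth muscle markers. Among genes with a mean signal over 6 they were 0.89 for the CD34 family, 0.46 for VCAM-1 receptors, 0.57 for the NCAM list, 0.13 for the caveolar coat, 0.10 for quiescence genes, 0.23 for smooth muscle, 0.14 for Schwann cell and 0.86 for epithelial markers. Of 119 recomputed values for these results, 97 stayed within 0.1 (counts within 1.5 times) and 22 moved. The number of arrays limits the precision, and without detection calls it is not known which dim genes, Calcr among them, were above background.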
